A study of Homo sapiens with 9 samples.

Results

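The 10 genes described here encode factors that copy, package and transcribe mitochondrial DNA (mtDNA): TFAM, TFB1M, TFB2M, POLG, POLG2, POLRMT, TWNK, SSBP1, MGME1 and TOP1MT. They were taken by symbol through the Ensembl identifiers of the deposited count table, where each matched 1 of 60448 rows, and all 10 passed the filter on low counts that left 15019 genes. The table covers 9 RNA sequencing libraries of cells labelled Huh7, a human hepatocellular carcinoma line grown in DMEM. OPA1 was knocked down in 2 sets, N_28 and N_30, with 3 libraries each, and 3 libraries were controls. The labels name lentivirus as the means of knock-down, state this for the control libraries as well, and say neither what N_28 and N_30 stand for nor what the controls received. Separate cultures are not mentioned either, so each p-value rests on the spread among libraries that may be technical repeats. These are bulk samples, in which fewer cells of a type and less RNA per cell cannot be told apart.

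Mitochondrial DNA is copied by a dedicated polymerase, POLG with its accessory subunit POLG2, behind the helicase TWNK (Twinkle) and on strands coated by the single-stranded DNA-binding protein SSBP1. It is transcribed by POLRMT, which starts at promoters with the help of TFB2M and TFAM, and TFAM also packs the DNA into nucleoids. OPA1, the knock-down target, is a GTPase that fuses inner mitochondrial membranes, and human OPA1 mutations can come with deletions or loss of mtDNA.

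MGME1, a mitochondrial exonuclease that trims DNA ends during replication, was the 1 member called, and it fell in N_28. The other 9 did not pass the test in N_28, where 10.2% of all tested genes were called, and 0 of 10 passed in N_30, where 0.866% were, so these counts do not set the 10 apart from genes at large. In N_28, the 95% intervals of all 10 log2 fold changes lay between -0.39 and 0.52. In N_30 they lay between -0.25 and 0.47.

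Levels are given as CPM, counts scaled to a common library size. Depth ran from 16476389 to 22863328 counts per library, and 3 counts, the floor for detection, came to 0.182 CPM in the shallowest one. OPA1 stood at 53.3, 55.7 and 57.8 CPM in N_28 and at 64.2, 63.3 and 65.9 CPM in N_30, against 82.8, 92.9 and 90.5 CPM in control. Every knock-down library lay below every control library. The log2 fold change of OPA1 was -0.68 in N_28 (edgeR adjusted p = 1.38e-05) and -0.46 in N_30 (edgeR adjusted p = 0.00221). The label of a hepatocellular line was not checked here, and defining hepatocyte genes, near 0 in libraries of every group, do not bear it out. Of 8 such markers, 5 (ALB, APOA1, APOB, HNF4A and TTR) were too low to be tested, with at most 10 counts in any library and APOB at 0 in all 9. The summed level of the 8 was 1.49 to 2.01 CPM in N_28 and 5.28 to 10.1 CPM in N_30, against 4.70 to 7.68 CPM in control. Within them, TF (transferrin) fell in N_28 by 3.09 and SERPINA1 by 2.84 on the log2 scale (edgeR adjusted p = 0.000609 and 0.0224), while AFP, also tested, was at 0.30 (edgeR adjusted p = 0.677). The SERPINA1 call was kept in 9 of the 13 alternatives that tested it, and its N_28 libraries held 0 to 0.193 CPM, near the floor. Among markers of other cell types, the mesenchymal cadherin CDH2 fell by 1.15 in N_28 (edgeR adjusted p = 7.72e-07). The endothelial gene PECAM1 rose by 0.81 there (edgeR adjusted p = 0.0346). Mesenchymal VIM was at -0.07 and epithelial CDH1 at 0.18 in N_28, and neither passed (edgeR adjusted p = 0.476 and 0.828). Over all 9 libraries, VIM ran from 1370 to 1544 CPM, CDH2 from 63.7 to 165 CPM and CDH1 from 0.846 to 2.64 CPM. EPCAM and PTPRC were too low to be tested. The PECAM1 call was kept in 8 of 14 alternatives, and its adjusted p reached 0.133 in edgeR without N_28 replicate 1. The part of these marker shifts in the values below was not tested.

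Sequence upstream of RefSeq starts is shown for 2 reasons. Several members share a motif there, and a pair of members share a start region with a neighbour that runs the other way. The RefSeq promoter table (GRCh38.p14, 250 bases before to 50 after each annotated start) held 8 of the 10 members. The motif of nuclear respiratory factor 1 (GCGCA, then any base, then GCGC) was searched on both strands. It was found in 4 of these 8 members, TFAM, TFB1M, POLG2 and POLRMT, and in 5.78% of all 35116 windows. The ETS-type motif CCGGAAG, which GABPA binds, was found on either strand in 4 of the 8, TFB1M, POLG2, POLRMT and SSBP1, and in 10.3% of all windows. Members are counted by gene and the background by window. A gene such as SSBP1 can hold several windows, so these shares are not on the same scale. In the stretches below, written 5′ to 3′ on the strand of each gene, capitals mark the first motif:
TFAM (chr10:58385322-58385381, plus strand): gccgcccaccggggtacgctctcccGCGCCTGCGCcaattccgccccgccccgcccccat
TFB1M (chr6:155314582-155314641, minus strand): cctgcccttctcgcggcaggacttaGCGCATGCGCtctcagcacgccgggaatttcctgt
POLG2 (chr17:64497055-64497093, minus strand): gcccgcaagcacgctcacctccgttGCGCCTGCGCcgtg
POLRMT (chr19:633538-633586, minus strand): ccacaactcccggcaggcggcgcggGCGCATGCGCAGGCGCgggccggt

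In TFAM and POLG2 the match lies on the opposite strand, and in POLRMT overlapping matches run together into 1 stretch of capitals. With the annotated start as 0, the match begins at position -63 in TFAM, -132 in TFB1M, -14 in POLG2 and -24 in POLRMT. A match is a description of these letters and not a site of binding.

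MGME1 and TWNK each begin next to a gene on the other strand. MGME1 faces SNX5, a sorting nexin of endosomes, and TWNK faces MRPL43, a protein of the mitochondrial ribosome. The bases between the facing starts, in the annotations named next, are given below from the promoters of MGME1 and MRPL43, with the motif CCGGAAG in capitals. In GENCODE the genes MGME1, SNX5 and MRPL43 start within these stretches, which therefore include exon bases that both genes of a pair share. The first runs between the RefSeq starts of SNX5 and MGME1 and holds neither motif, and the second ends at the start of the principal TWNK transcript in GENCODE release 29:
MGME1 (chr20:17968795-17969017, plus strand): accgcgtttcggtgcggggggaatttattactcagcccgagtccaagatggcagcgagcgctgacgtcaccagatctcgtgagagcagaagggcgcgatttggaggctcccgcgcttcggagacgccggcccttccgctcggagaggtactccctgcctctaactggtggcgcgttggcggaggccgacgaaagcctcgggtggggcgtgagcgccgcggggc
MRPL43 (chr10:100987498-100987535, minus strand): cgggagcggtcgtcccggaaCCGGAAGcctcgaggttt

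All 10 genes were well above the counting floor, from 8.05 CPM for TFB1M in an N_30 library to 192 CPM for POLRMT in a control library. Divided by the length of all annotated exons, control levels were highest for POLRMT at 34.3 ± 2.78 RPKM (CPM per kilobase, SD, n = 3), followed by TFB2M at 26.9 ± 0.890 and MGME1 at 25.6 ± 1.03 RPKM. SSBP1 at 22.1 ± 1.19 and TFAM at 20.7 ± 1.58 RPKM came next. TWNK at 17.1 ± 1.59, POLG at 17.0 ± 0.305, TOP1MT at 9.28 ± 0.378, POLG2 at 6.69 ± 1.06 and TFB1M at 3.22 ± 0.341 RPKM closed the order. Control libraries overlapped between TFB2M and MGME1, between SSBP1 and TFAM, and between TWNK and POLG, so these neighbours in the order were not told apart. The order depended on the length used. Per kilobase of the principal transcript, a scale added after the data were seen, SSBP1 stood first at 111 ± 6.01 RPKM and TOP1MT was behind POLRMT at 30.5 ± 1.24 RPKM, while POLG2 at 14.5 ± 2.30 and TFB1M at 6.19 ± 0.656 RPKM remained the lowest.

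**Figure D1:**
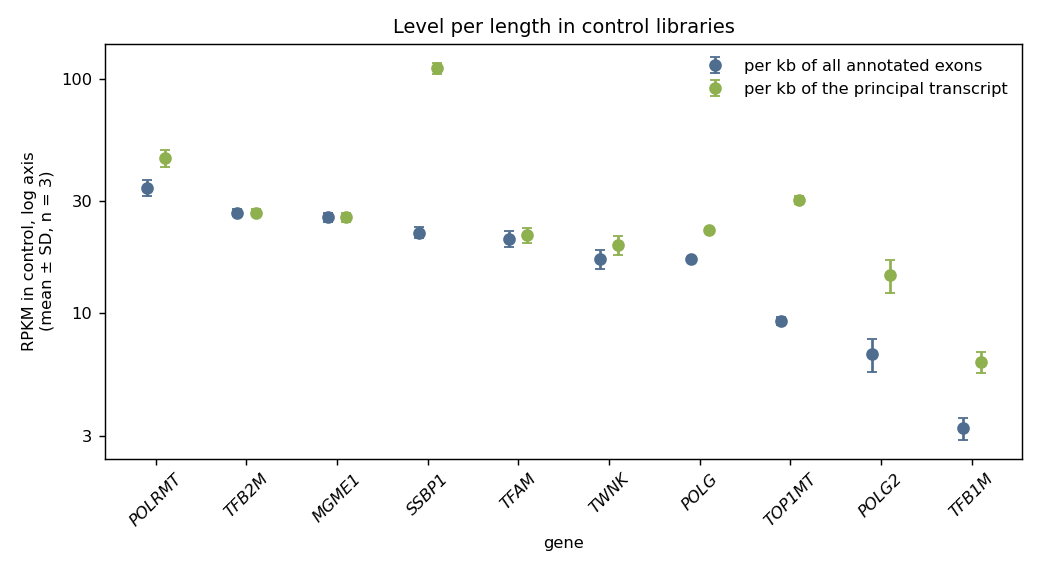
Level per length of the 10 genes in control libraries, as RPKM on a log axis (mean ± SD, n = 3), per kilobase of all annotated exons (blue) and of the principal transcript (green). TFB1M was lowest on both scales, and SSBP1 moved most between them, from 22.1 to 111 RPKM.

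The transcription factors of mtDNA did not pass the test in either knock-down set. TFAM (ENSG00000108064, chr10:58385022-58399221, plus strand, GENCODE release 29 on GRCh38) had 119, 119 and 115 CPM in N_28 libraries and 108, 110 and 107 CPM in N_30 libraries, against 106, 124 and 119 CPM in control libraries. The lowest control library lay below all 6 knock-down libraries, and the groups overlapped. The log2 fold change of TFAM was 0.02 in N_28 (95% interval -0.11 to 0.15, edgeR adjusted p = 0.906) and -0.10 in N_30 (-0.23 to 0.03, edgeR adjusted p = 0.575). TFAM was lower in every N_30 library than in every N_28 library, by 0.12 on the log2 scale on average, which did not pass (edgeR adjusted p = 0.203).

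TFB2M (ENSG00000162851, chr1:246540560-246566324, minus strand), which melts the promoter for the polymerase, ran from 48.2 to 51.8 CPM in N_28 and from 46.0 to 48.7 CPM in N_30, against 47.9 to 51.0 CPM in control. Its log2 fold changes were 0.02 (-0.10 to 0.15) in N_28 and -0.08 (-0.21 to 0.05) in N_30. The polymerase POLRMT (ENSG00000099821, chr19:617224-633604, minus strand) ran from 167 to 177 CPM in N_28 and from 160.1 to 189.8 CPM in N_30, against 167 to 192 CPM in control. Its log2 fold change was -0.04 in N_28 and 0.01 in N_30, with intervals of -0.19 to 0.12 and -0.14 to 0.17. For both genes the groups overlapped, and the intervals include 0.

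TFB1M (ENSG00000029639, chr6:155257509-155314493, minus strand) is a relative of TFB2M that methylates the small ribosomal RNA of mitochondria. It had 10.8, 10.1 and 10.5 CPM in N_28 and 10.7, 8.05 and 11.3 CPM in N_30, against 8.51, 8.07 and 9.87 CPM in control. All 3 N_28 libraries lay above the controls, and N_30 library 2 lay below them. Its log2 fold change was 0.24 in N_28 (SE 0.13, edgeR adjusted p = 0.279) and 0.18 in N_30 (SE 0.13, edgeR adjusted p = 0.668). TFB1M is the least abundant member, and its standard error was the largest of the 10.

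Among the replication genes, TWNK and POLG2 came closest to the threshold without passing it. The helicase TWNK (ENSG00000107815, chr10:100987367-100994401, plus strand) had 61.1, 61.1 and 57.8 CPM in N_28 and 66.8, 74.6 and 67.4 CPM in N_30, against 63.3, 76.0 and 72.5 CPM in control. N_28 lay below the other groups with no overlap, while N_30 and control overlapped. The log2 fold change of TWNK was -0.23 in N_28 (SE 0.07, 95% interval -0.39 to -0.08), which just missed the threshold (edgeR adjusted p = 0.0580), and -0.02 in N_30 (edgeR adjusted p = 0.953). Between the sets, N_30 was above N_28 by 0.21 on the log2 scale (edgeR adjusted p = 0.0581). Without control replicate 1, TWNK passed in N_28, at -0.31 (edgeR adjusted p = 0.0145). Over 15 alternatives its adjusted p in N_28 ran from 0.0145 to 0.183.

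Neither subunit of the mtDNA polymerase passed the test. The catalytic subunit POLG (ENSG00000140521, chr15:89305198-89334861, minus strand) had 99.0, 97.8 and 97.5 CPM in N_28 and 103, 103 and 95.7 CPM in N_30, against 104, 100.3 and 101 CPM in control. N_28 lay just below control with no overlap, by 0.05 on the log2 scale (95% interval of the fold change -0.17 to 0.06, edgeR adjusted p = 0.608). The accessory subunit POLG2 (ENSG00000256525, chr17:64477785-64497036, minus strand), which clamps the polymerase to DNA, had 26.3, 28.03 and 27.9 CPM in N_28 and 22.9, 21.8 and 21.9 CPM in N_30, against 19.0, 22.7 and 26.2 CPM in control. The control libraries of POLG2 spread over a range as wide as the gap between the knock-down sets. Its log2 fold change was 0.27 in N_28 (SE 0.10, edgeR adjusted p = 0.108) and -0.03 in N_30 (edgeR adjusted p = 0.946), and N_30 lay below N_28 by 0.31, at the edge of the threshold (edgeR adjusted p = 0.0507). Leaving out 1 control library at a time gave log2 fold changes in N_28 of 0.16 without control replicate 1, 0.27 without control replicate 2 and 0.40 without control replicate 3, and POLG2 passed in that last fit (edgeR adjusted p = 0.0205). Per exon length, the POLG2 to POLG ratio was 0.470, 0.506 and 0.505 in N_28 and 0.393, 0.375 and 0.403 in N_30, against 0.324, 0.400 and 0.458 in control. It was higher in every N_28 library than in every control library, and an exact two-sided permutation test gave p = 0.1, the smallest that 3 against 3 libraries allow. That order of the libraries fixes this p, so the test adds nothing to it.

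SSBP1 (ENSG00000106028, chr7:141738321-141787922, plus strand) had 124, 120.4 and 113 CPM in N_28 and 118, 122 and 115 CPM in N_30, against 106, 117 and 107 CPM in control. The means of both knock-down sets were above control by nearly the same amount, 0.11 in each on the log2 scale, and the groups overlapped (edgeR adjusted p = 0.277 in N_28 and 0.548 in N_30). TOP1MT (ENSG00000184428, chr8:143304384-143359979, minus strand), the topoisomerase that relaxes supercoils in mtDNA, ran from 56.1 to 60.8 CPM in N_28 and from 54.2 to 60.2 CPM in N_30, against 57.2 to 62.0 CPM in control. Its log2 fold changes were -0.04 and -0.08, and the groups overlapped.

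**Figure D2:**
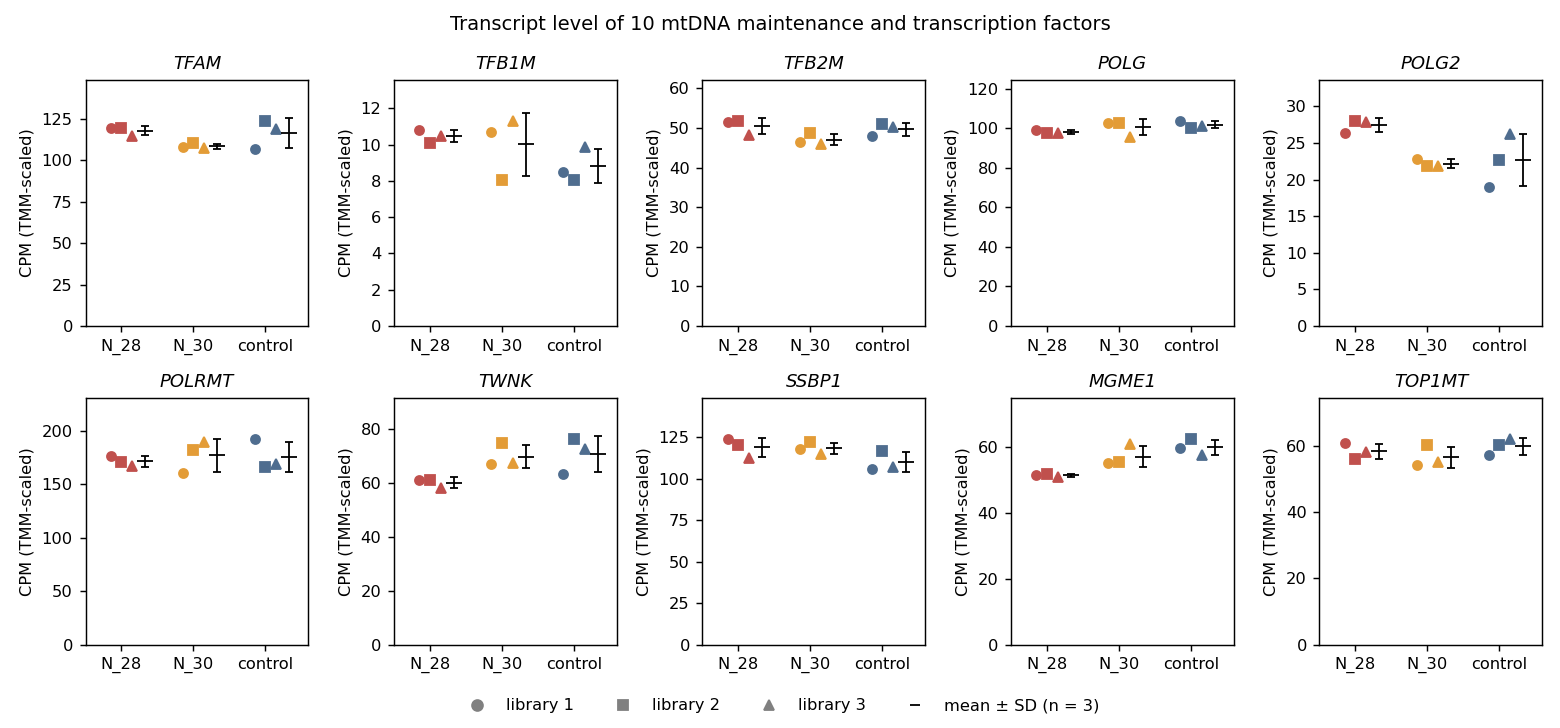
CPM with TMM scaling, for each of the 10 genes in every library of N_28, N_30 and control; symbols show the library number and black bars the mean ± SD (n = 3). N_28 libraries lie below all controls for MGME1, TWNK and POLG and above them for POLG2 and TFB1M, and MGME1 alone was called. N_30 overlaps control in every panel.

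MGME1 (ENSG00000125871, chr20:17968913-17991122, plus strand) had 51.5, 51.9 and 51.0 CPM in N_28 and 55.2, 55.3 and 60.8 CPM in N_30, against 59.8, 62.4 and 57.6 CPM in control. The N_28 libraries lay closely together below the other 6, and N_30 overlapped control. MGME1 fell in N_28 by 0.22 on the log2 scale (SE 0.06, 95% interval of the fold change -0.35 to -0.09, edgeR adjusted p = 0.0328). The log2 fold change was -0.07 in N_30 (SE 0.06, edgeR adjusted p = 0.735), and the difference between the sets, 0.15, did not pass (edgeR adjusted p = 0.0996), so the fall is not shown to be particular to N_28. The call in N_28 was lost without control replicate 1 (edgeR adjusted p = 0.0674), control replicate 2 (0.102), N_28 replicate 1 (0.0988), N_28 replicate 2 (0.0927) or N_28 replicate 3 (0.0960), and with no filter on low counts (0.0730). The log2 fold change stayed between -0.25 and -0.19 under all 15 alternatives.

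**Figure D3:**
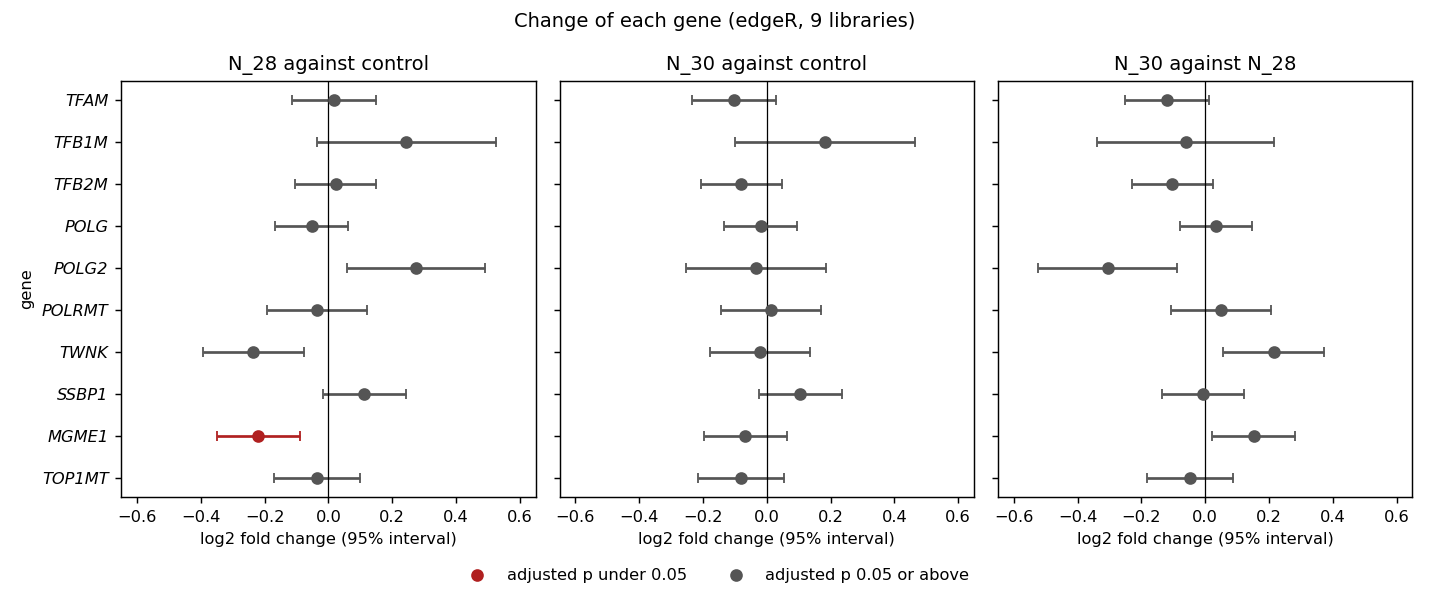
Log2 fold change of each gene with its 95% interval from the edgeR fit of 9 libraries, for N_28 against control, N_30 against control and N_30 against N_28. MGME1 at -0.22 in N_28 against control is the 1 point past an adjusted p of 0.05. Intervals for POLG2 and TWNK lie to 1 side of 0 without passing after adjustment in N_28 against control and in N_30 against N_28. The same holds for MGME1 in N_30 against N_28. In N_30 against control every interval includes 0.

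The counts of members called are set here beside the share of all genes called. In N_28, 1 of 10 members was called, where 10.2% of all tested genes were, and that member fell, as did 5.75% of genes. In N_30, 0 of 10 were called, where 0.866% of genes were. With the replicate number as a block, a pairing that neither the labels nor the data settle, 424 in place of 130 genes were called in N_30 and again 0 members. The block called 3 members in N_28 against control (15.3% of genes) and 2 between N_30 and N_28 (24.5%), more than reported. In the average of N_28 and N_30 against control, 0 of 10 were called, beside 1.78% of genes, and MGME1 had the lowest adjusted p there (log2 fold change -0.14, edgeR adjusted p = 0.244). Between N_30 and N_28, 0 of 10 were called, beside 18.3% of genes, and at least 1 member was called in 9 of 15 alternatives. Before adjustment, p was under 0.05 for 3 members in N_28, 0 in N_30, 1 in the mean of both and 3 between the sets. Of all 15019 genes, 3589, 1716, 1860 and 4678 were under 0.05 in these comparisons. In the same order, DESeq2 called 1, 0, 0 and 1 of the 10 members, beside 10.7, 1.78, 2.72 and 17.7% of genes.

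Libraries did not overlap between N_28 and control for 5 of 10 members, where the same held for 28.7% of tested genes. TFB1M and POLG2 were higher, beside 14.2% of genes, and POLG, TWNK and MGME1 were lower, beside 14.6% of genes. Between N_30 and control this was so for 0 of 10 members and 15.2% of genes, and between N_30 and N_28 for 4 of 10 members and 36.4% of genes. The median log2 fold change of the members was -0.01 in N_28 and -0.03 in N_30, beside a median of 0.00 over all genes in each. The median size of the change regardless of sign was 0.08 in N_28 and 0.07 in N_30, beside 0.13 and 0.09 over all genes. These medians were not matched for level. A filter at a mean CPM of 5 kept all 10 members but 10679 genes in place of 15019.

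In N_28, MRPL43 lay below control as TWNK did, and SNX5 did not as MGME1 did. MRPL43 had 84.7, 81.7 and 82.6 CPM in N_28 and 90.6, 96.9 and 101 CPM in N_30, against 93.5, 95.4 and 97.9 CPM in control. As for TWNK, every N_28 library lay below every library of the other groups. MRPL43 fell in N_28 by 0.20 (edgeR adjusted p = 0.0361, a call kept in 7 of 15 alternatives) and was higher in N_30 than in N_28 by 0.22 (edgeR adjusted p = 0.0184). SNX5 had 153, 141 and 153 CPM in N_28 and 142, 143 and 149 CPM in N_30, against 131, 155 and 146 CPM in control, and its log2 fold change in N_28 was 0.06 (edgeR adjusted p = 0.678). GENCODE exons overlap in 149 bases between TWNK and MRPL43, of 4133 exon bases in TWNK, and in 68 bases between MGME1 and SNX5, of 2336 in MGME1. No source used here tells whether counting used strand, so reads from these shared bases cannot be assigned to either gene. POLG shares 458 exon bases with FANCI, a DNA repair gene whose log2 fold change in N_28 was -0.04 (edgeR adjusted p = 0.768). TFB1M shares 215 of its 2736 exon bases with TIAM2, on the opposite strand. TIAM2 was at -0.08 in N_28 (edgeR adjusted p = 0.868), and the same limit applies to both pairs.

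**Figure D4:**
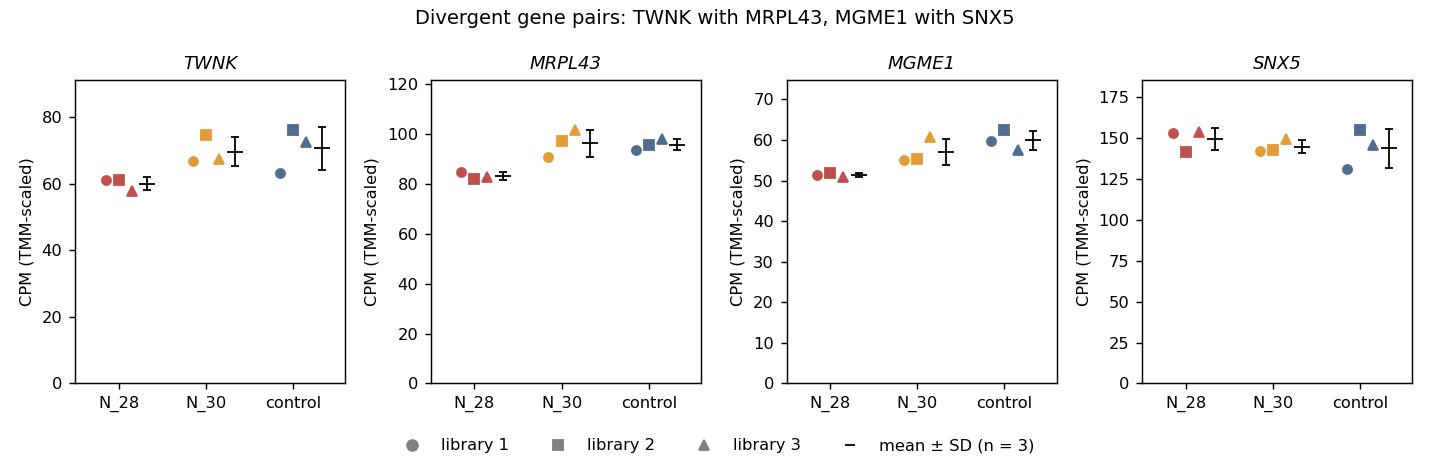
CPM (TMM-scaled) of TWNK and MRPL43, and of MGME1 and SNX5, in every library of N_28, N_30 and control; black bars are the mean ± SD (n = 3). N_28 libraries are lowest for TWNK, MRPL43 and MGME1, while SNX5 in N_28 overlaps control.

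The genes sit on 9 chromosomes, with TFAM and TWNK both on chromosome 10. The other tested genes of chromosome 20, which holds MGME1, had a median log2 fold change of -0.06 in N_28 (398 genes), and those of chromosome 10 of -0.05 (624 genes). On chromosome 17, which holds POLG2, the median was 0.03 (956 genes). For MGME1, TWNK and POLG2 the median has the sign of the member and is smaller in size. This does not hold for all 10 genes. In N_28 the median was 0.07 on chromosome 19, with POLRMT at -0.04. It was -0.004 on chromosome 7, with SSBP1 at 0.11, and -0.001 on chromosome 1, with TFB2M at 0.02. On chromosome 15 it was -0.060, with POLG at -0.053. TFB1M and TOP1MT had the sign of their medians. The part of these medians in the members' values was not tested. TFAM, on the same chromosome as TWNK, was at 0.02.

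POLG2 had the widest range of group means, 0.30 on the log2 scale. Across the 9 libraries, the tested genes most like it in log2 CPM were PNN (Pearson r = 0.966), PLAGL2 (0.942) and the pseudogene GTF2IP13 (0.935), which share libraries and depth with it and are given as a description. PNN was at 170 CPM in N_28 and 158 CPM in N_30, against 159 CPM in control.

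The lists of genes that work beside these factors are read against 10.2% of all genes called in N_28 and 0.866% in N_30, and no list was tested against genes at large. At an unadjusted p under 0.05 there were 3589 of 15019 genes in N_28 and 1716 in N_30. Of 16 partners in mtDNA replication and repair, FEN1, a flap nuclease of nuclear and mitochondrial DNA, fell in N_28 and 15 did not pass, and 0 passed in N_30. FEN1 had 69.0, 67.5 and 74.3 CPM in N_28 and 108, 109 and 105 CPM in N_30, against 118, 110 and 109 CPM in control. Every N_28 library lay far below the other 6, with a log2 fold change of -0.68 (edgeR adjusted p = 1.07e-05). It was -0.07 in N_30 (edgeR adjusted p = 0.727) and -0.37 in the average of both sets (edgeR adjusted p = 0.00182). The protease LONP1, which degrades TFAM, was at -0.05 in N_28 (edgeR adjusted p = 0.768).

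Of 16 genes of nucleotide supply, 2 fell in N_28, 0 rose, and 0 passed in N_30. MPV17, an inner membrane protein whose loss depletes mtDNA, had 71.6, 74.8 and 69.1 CPM in N_28 and 86.7, 87.2 and 87.5 CPM in N_30, against 83.3, 79.2 and 82.4 CPM in control. The 3 groups did not overlap, with N_28 lowest and N_30 highest. It fell in N_28 by 0.19 (edgeR adjusted p = 0.0447), a call lost when any 1 of the 9 libraries was left out (edgeR adjusted p from 0.0510 to 0.156). The aminotransferase ABAT was close to the counting floor, at 0.0550 to 0.218 CPM in N_28 and 0.356 to 0.503 CPM in N_30, against 0.307 to 0.734 CPM in control, with a log2 fold change of -1.82 in N_28 (edgeR adjusted p = 0.0400), a call kept in 5 of the 12 alternatives that tested it. The mitochondrial thymidine kinase TK2 was at -0.23 in N_28 (edgeR adjusted p = 0.310).

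Of 25 genes of mitochondrial transcript elongation, termination, processing and decay, 0 passed in N_28 and 0 in N_30, with lowest adjusted p-values of 0.233 and 0.386 by edgeR, and with 0 and 1 at an unadjusted p under 0.05. The elongation factor TEFM was at 0.02 in N_28 (edgeR adjusted p = 0.947). Among nuclear regulators of mitochondrial biogenesis, 12 of 13 were tested and 0 passed in N_28 or in N_30 (lowest edgeR adjusted p = 0.128 and 0.328), with 1 in each at an unadjusted p under 0.05. NRF1, the factor named by the first motif above, was at 0.01 in N_28 (edgeR adjusted p = 0.967). The coactivator PPARGC1A was not tested, with 1 count in all 9 libraries together.

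Transcripts of mtDNA itself gave 0 calls among 13 mRNAs and 2 ribosomal RNAs in N_28 and 0 in N_30 (lowest edgeR adjusted p = 0.128 and 0.514), with 1 and 0 at an unadjusted p under 0.05. These 15 genes held 3.90, 3.91 and 3.29% of counts in N_28 and 4.28, 3.53 and 3.33% in N_30, against 4.13, 4.25 and 3.34% in control. Library 3 had the lowest share in each group, and the groups overlapped. The 1 gene was the ribosomal RNA MT-RNR1, at 0.28 in N_28 (edgeR adjusted p = 0.128) and 0.20 in N_30 (edgeR adjusted p = 0.514). MT-CO1 was at -0.09 in N_28 (edgeR adjusted p = 0.683) and -0.14 in N_30 (edgeR adjusted p = 0.716). TOP1, the nuclear relative of TOP1MT, was at -0.09 in N_28 (edgeR adjusted p = 0.556).

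**Figure D5:**
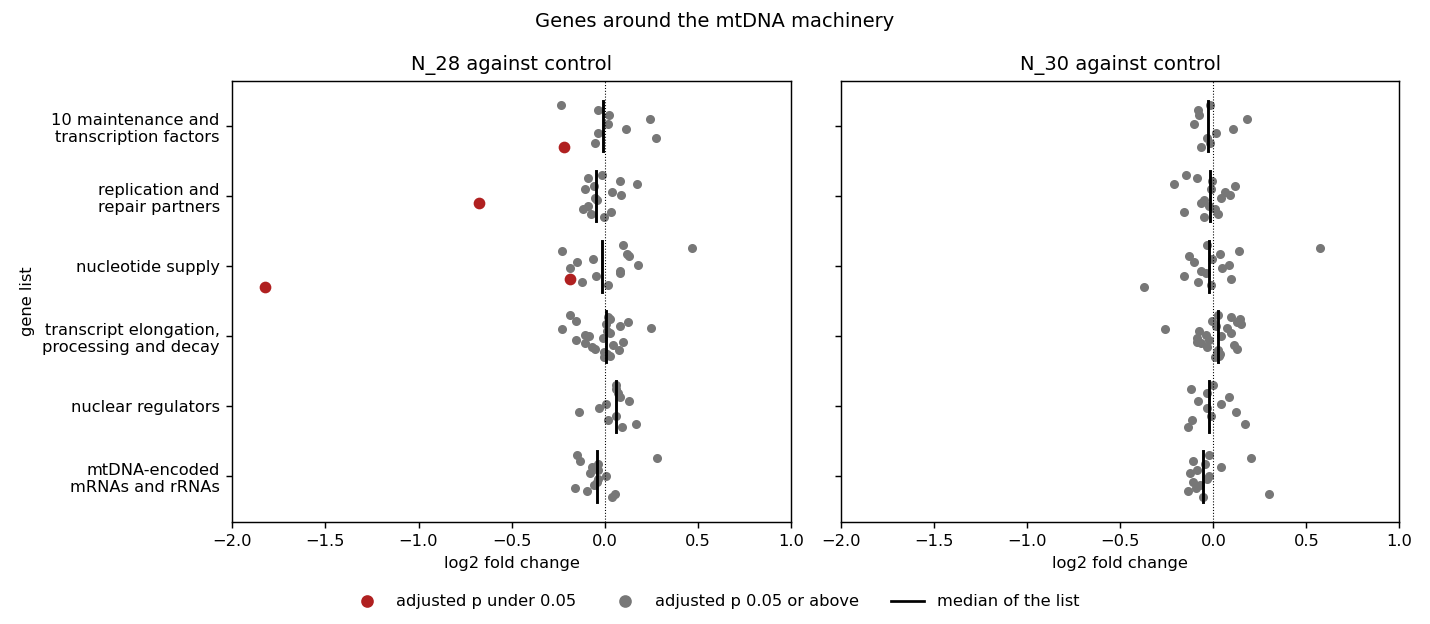
Log2 fold changes in N_28 and in N_30 against control for the 10 genes and 5 lists of genes that work with them; red points passed an adjusted p of 0.05 in edgeR and black lines are list medians. Red points are MGME1, FEN1, MPV17 and ABAT, all in N_28 and all below 0, and N_30 has none.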

How the data were processed

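The deposited file gives unnormalized counts of reads for each human Ensembl identifier in 9 libraries of 3 groups. Per the submitters' processing notes the build is mm8, a mouse build, although the identifiers are human; no source used here names the aligner, the counter, the annotation release or the use of strand. A table of gene names supplied symbols for 56434 rows, and GENCODE release 29 supplied 434 others. Genes were filtered with edgeR's expression filter (minimum count 10), scaled by TMM (trimmed mean of M values) and tested by quasi-likelihood in edgeR 4.0.16 under R 4.3.3, with a term per group over all 9 libraries. Calls are at a Benjamini-Hochberg adjusted p under 0.05 over 15019 genes. Fold changes are log2, with 95% intervals from the fit. Levels are CPM on TMM-scaled sizes, and RPKM is CPM per kilobase. The fit was tested on simulated data with changes larger than those of the genes described here, so that test does not cover changes of their size. Within groups, the chi-square per gene between libraries was 3.64 to 12.7, more than sampling noise, so none was treated as a copy.

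Deviations from the group mean correlated at 0.158, 0.429 and 0.562 between same-numbered libraries of N_30 and control. Library 1 of N_30 correlated more with control library 2 (0.296), so the data do not settle a pairing by number. Same-numbered pairs ran from 0.0356 to 0.506 for N_30 with N_28, and from -0.0791 to 0.312 for N_28 with control. Library 3 correlated best with library 3 in each pair of groups, at 0.562, 0.506 and 0.312. The labels do not pair the libraries either. Alternatives were DESeq2 1.42.0, DESeq2 size factors in edgeR, no filter, a mean CPM of at least 5, only the groups compared, the replicate block and leaving out each library.

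The 10 genes, the other lists and the motifs were chosen with earlier results of these data known. Named were all 10, members of other lists that were called (up to 4 per list and comparison), a few well-known ones not called, and OPA1. The neighbours SNX5, MRPL43, FANCI and TIAM2 were named after values were seen.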

Additional observations from a re-analysis of the deposited data

Results flagged for a closer look

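The test of N_30 against N_28 called 18.3% of all genes and 0 of the 10, of which POLG2 and TWNK were near the threshold (edgeR adjusted p = 0.0507 and 0.0581). The genes below were called in it and are given as values, not as a contrast with the 10. FEN1 was higher in N_30 than in N_28 by 0.61 on the log2 scale, MPV17 by 0.28, SAMHD1, a nucleotide hydrolase, by 0.23, and MRPL43 by 0.22 (edgeR adjusted p = 1.06e-05, 0.00276, 0.0253 and 0.0184). SUCLA2, a subunit of succinyl-CoA ligase, stood at -0.26 and the transcription factor CREB1 at -0.23 in N_30 relative to N_28 (edgeR adjusted p = 0.0284 and 0.0268). OPA1 itself was higher in N_30 by 0.21 (edgeR adjusted p = 0.0265). Of the cell type markers, TF was higher in N_30 by 3.46, SERPINA1 by 3.77 and CDH2 by 1.21 (edgeR adjusted p = 0.000111, 0.00121 and 1.27e-07). SERPINA1 in N_28 was near the counting floor, and leaving out 1 library moved its value from 3.14 without N_28 replicate 3 to 4.68 without N_28 replicate 1, and that of TF from 3.17 without N_28 replicate 2 to 4.31 without N_28 replicate 3. The difference was lost in some alternatives for SAMHD1, SUCLA2, OPA1 (each kept in 9 of 15), CREB1 and MRPL43 (each kept in 11 of 15). Sets of 3 libraries were too small for a search for outlying libraries.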

How the results depend on the processing

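For the 10 genes, every alternative that kept all 9 libraries, or both groups compared, left the direction as reported. Members called in N_28 numbered 2 with a mean CPM of at least 5 (13.3% of all genes), 3 with the replicate block (15.3%) and 0 to 2 with 1 library left out (6.35 to 11.2%), against 1 reported (10.2%). Between N_30 and N_28, against 0 reported (18.3% of all genes), they numbered 1 with DESeq2 size factors (18.3%), by DESeq2 (17.7%), with no filter (10.3%) or with a mean CPM of at least 5 (22.9%), 2 with only the groups compared (19.4%) or the replicate block (24.5%), and 0 to 2 with 1 library left out (12.1 to 19.1%). The replicate block added TWNK and POLG2 in N_28 (adjusted p = 0.0166 and 0.0457) and the same genes between the sets. Not every library correlated best with that of its own number, while library 3 did in each pair of groups. Of all genes, 267 were called in N_30 by DESeq2, 523 with no filter, 424 with the replicate block and 58 to 180 with 1 library left out, against 130; in the average of both sets these were 408, 705, 616 and 134 to 322, against 268; in N_28, 967 to 1712 were called with 1 library left out, against 1538. The cause was not tested. For that average, fitting only the groups compared is the fit reported.

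Directions turned only with 1 library left out and near 0. In N_28 the log2 fold change then ran from -0.042 to 0.062 for TFAM, -0.0030 to 0.057 for TFB2M, -0.075 to 0.033 for POLRMT, -0.093 to 0.0085 for FANCI, -0.13 to 0.018 for LONP1, -0.053 to 0.064 for NRF1, -0.0068 to 0.11 for SNX5, -0.057 to 0.10 for TEFM, -0.16 to 0.0021 for TOP1. In N_30 it ran from -0.037 to 0.015 for POLG, -0.14 to 0.089 for POLG2, -0.038 to 0.083 for POLRMT, -0.093 to 0.033 for TWNK. In the average of both sets it ran from -0.050 to 0.058 for POLRMT, -0.10 to 0.0019 for TFAM. Between N_30 and N_28 it ran from -0.0022 to 0.12 for POLRMT, -0.046 to 0.023 for SSBP1, -0.17 to 0.075 for TFB1M. Of the 10 genes, TFB1M had the fewest counts, 1792 in all, and the largest standard error.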
